A study of Danio rerio with 8 samples.

Results

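The genes described here encode parts of the lysosome, namely the proton pump that acidifies it, the proteases that work inside it, and proteins of its membrane and lipid handling. They were chosen by symbol as the probe sets with 1 platform gene symbol that starts with atp6v, atp6ap or lamp or with cts and a further letter, or that is on a short list of lysosomal enzymes and cofactors. This gave 36 genes with 39 probe sets, of 8793 named genes and 15502 probe sets on the array. Each gene is represented by its probe set with the highest mean signal. The genes fall into 15 of the proton pump, 14 proteases and 7 others. Of the 16 genes that the list names individually, 5 were found (npc1, lgmn, psap, scarb2a and asah1a). The other 11 (npc2, hexa, hexb, gla, glb1, gns, gusb, lipa, neu1, asah1b and gba) had no probe set with that single symbol in the annotation used here. The members therefore hold none of the sugar-cleaving hydrolases named there, and a few others are given with the further lysosomal genes below.

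The arrays compared GFP-positive with GFP-negative cells, sorted by flow cytometry from cd41-GFP transgenic zebrafish embryos (strain background AB) at 35 hours post fertilization, with 4 arrays of each fraction paired as replicates 1 to 4. The transgene drives green fluorescent protein (GFP) from regulatory sequence of cd41, now itga2b, whose product is a platelet integrin subunit present on thrombocytes and on early blood progenitors. Both fractions carry the cd41-GFP transgene per the labels and differ by fluorescence, and sorted cells were passed through the cytometer again for purity. RNA went through 2 rounds of linear amplification. Nothing in the labels ties the replicates to separate clutches, so the p-values cover the spread between these samples alone, which may be technical.

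Lysosomes are acidic organelles that break down proteins, lipids and sugars delivered by endocytosis, phagocytosis and autophagy. Their acidity comes from the vacuolar proton pump, in which a cytosolic V1 sector splits ATP and turns a ring of proteolipids in the membrane-bound V0 sector, and cathepsins, most of them cysteine proteases, digest proteins in the acid lumen. Phagocytes such as macrophages and neutrophils are rich in lysosomes, and pigment cells and osteoclasts use related organelles and the same pump. In zebrafish, loss of pump subunits lightens the pigment of the embryo.

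The fractions differed widely. Of the 8 tested leukocyte markers 8 rose in the GFP-positive fraction and 0 fell, and their summed signal was 127557 to 212456 on GFP-positive arrays, against 4934 to 15788 on GFP-negative arrays. Of the 11 tested neural markers 11 fell and 0 rose, and of the 10 tested muscle markers 10 fell and 0 rose. The marker lists, like the lysosomal genes, were chosen with earlier results of these data known, so their counts are not independent support. Over all 9801 tested probe sets, 13% were called higher and 18.4% lower. The neural marker neurog1 and the muscle markers mylz3 and tnnt3a were dim on all GFP-positive arrays. These passed the filter only through the GFP-negative arrays. The gene behind the gate, itga2b, was dim on all arrays, with signals of 34 to 144 on GFP-positive and 16 to 143 on GFP-negative arrays, so it does not check the labels. Dim here means below the 40th percentile of the array. The hybridization spike-ins, added in a fixed amount to each sample, were higher on the GFP-positive array in all 4 pairs for 18 of 18 probe sets, by a mean of 0.86 to 1.53 on the log2 scale. Median signals of the arrays ran from 278.4 to 423.7 in the GFP-positive and from 374.4 to 392.6 in the GFP-negative fraction. In sorted bulk samples, more cells of a type and more RNA of these genes per cell cannot be told apart.

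Most lysosomal genes were higher in the GFP-positive fraction. Of 36 genes 32 passed the filter on dim probe sets and were tested, and of these 19 rose, 2 fell and 11 did not pass the test (limma, adjusted p under 0.05). Over all 9801 tested probe sets, 13% were called higher and 18.4% lower. The signals of all 4 GFP-positive arrays lay above all 4 GFP-negative arrays for 13 of the 32 genes, against 14.5% of all tested probe sets, and below them for 3, against 19.9%. The median log2 difference (GFP-positive minus GFP-negative) was 1.27 over the 32 genes and -0.18 over all tested probe sets. Either call was made for 31.4% of all tested probe sets, against 21 of the 32 genes. Risen pump genes were 2.25-fold to 7.91-fold higher, risen proteases 1.90-fold to 27.8-fold higher, and the risen others 2.24-fold to 2.54-fold higher.

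**Figure D1:**
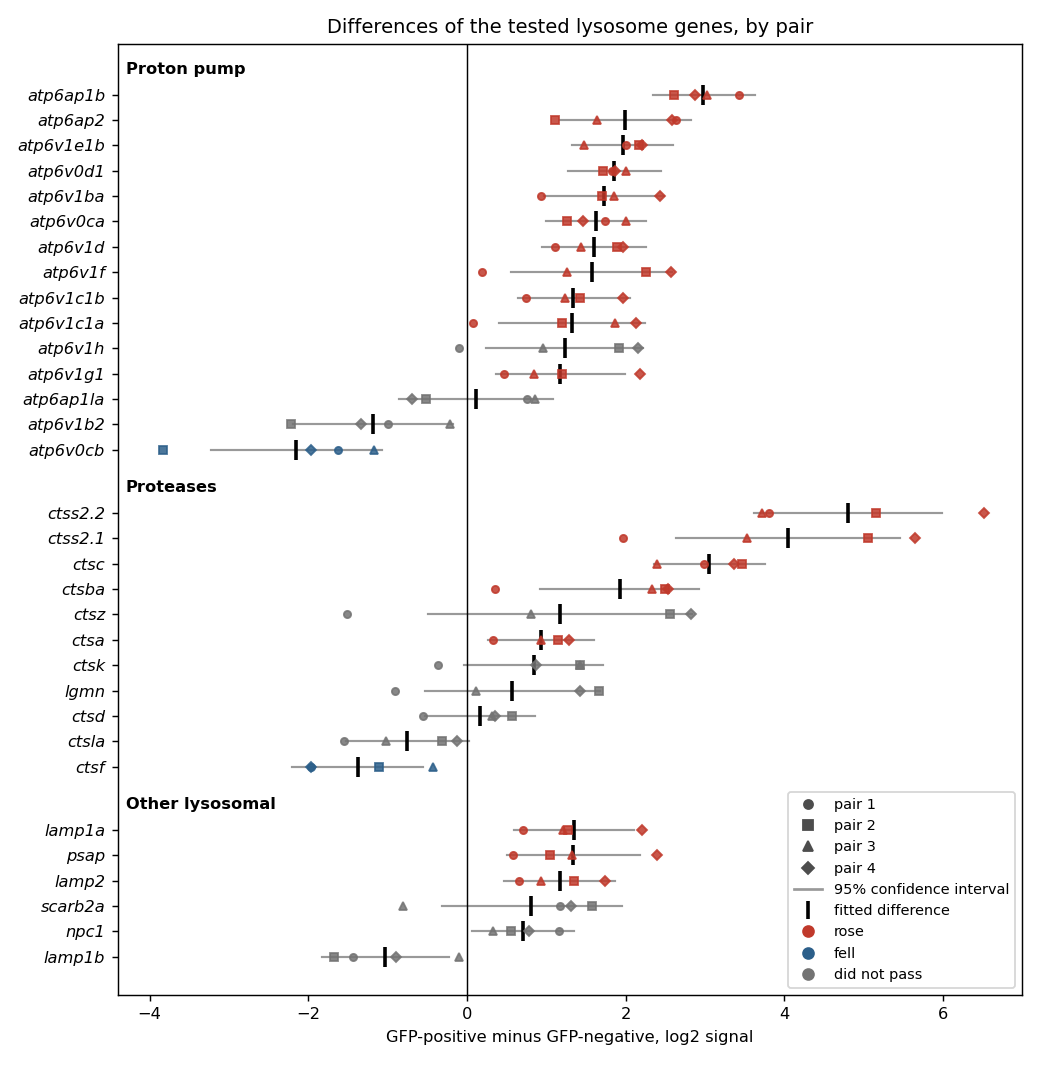
Differences in log2 signal, GFP-positive minus GFP-negative, for the 32 tested lysosome genes by class. Points are the 4 pairs, black ticks the fitted difference and grey lines its 95% confidence interval; the 19 genes that rose are red, the 2 that fell (atp6v0cb and ctsf) blue and the 11 that did not pass grey.

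The proton pump rose across its sectors. Of its 15 tested genes 11 rose, 1 fell and 3 did not pass, against 13% called higher and 18.4% lower of all tested probe sets. All 12 called genes moved the same way in 4 of 4 pairs. A call on these same pairs favours such agreement, so it is no separate evidence. The median difference was 1.57, with pair medians of 0.76, 1.43, 1.44 and 2.13. In the V1 sector 7 of 9 genes rose and 0 fell, in V0 2 of 3 rose and 1 fell, and among the accessory proteins 2 of 3 rose. The count differed with the pair left out: 6, 7 and 6 pump genes rose without replicate 2, 3 or 4, when 6.87%, 9.11% and 6.59% of all tested probe sets were called higher, and 12 rose without replicate 1 (15.0%). The calls of atp6v1c1a, atp6v1c1b, atp6v1f and atp6v1g1 were each lost without replicate 2, 3 or 4. The spike-ins differed most in pair 1 (pair medians of 2.27, 0.42, 1.59 and 0.44), where the median of all pump genes was lowest. By sector, the V1 median was lowest in pair 1 (0.47) and the V0 median in pair 2 (1.26). That of the accessory genes was highest in pair 1 (2.64). The part of the spike-in difference in these values was not tested.

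The accessory subunit atp6ap1b, which helps the pump assemble and reach its membranes, had the largest difference of the 15 pump genes. Its signals were 19876, 9719, 10890 and 11018 on GFP-positive arrays 1 to 4, against 1845, 1595, 1332 and 1510 on GFP-negative arrays. The lowest GFP-positive array lay far above the highest GFP-negative one, and the log2 difference was 2.98 (SE 0.27, n = 4 pairs, adjusted p = 0.0012), or 7.91-fold. The other accessory protein gene, atp6ap2, known in mammals as the prorenin receptor, had signals of 16374, 3653, 3392 and 6801 on GFP-positive arrays and 2621, 1689, 1088 and 1139 on GFP-negative arrays. Its fractions did not overlap either, though GFP-positive array 1 stood high, and the difference was 1.99 (SE 0.35, adjusted p = 0.0080). The gene named atp6ap1la, for its likeness to atp6ap1, had signals of 327, 215, 422 and 282 on GFP-positive and 193, 305, 232 and 456 on GFP-negative arrays. These overlapped, with a difference of 0.11 (95% confidence interval -0.86 to 1.08, adjusted p = 0.86).

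In the V0 sector, atp6v0d1 encodes the d subunit that couples the turning ring to the stalk of V1. It gave 23416, 19294, 20425 and 25737 on GFP-positive arrays, against 6571, 5890, 5099 and 7046 on GFP-negative arrays. The fractions stood apart and the pairs were close to each other, with differences of 1.83, 1.71, 2.00 and 1.87 (fitted 1.85, SE 0.25, adjusted p = 0.0040). The proteolipid of the ring has a pair of genes on the array, and they went opposite ways. Signals of atp6v0ca were 49205, 42880, 56561 and 56066 in the GFP-positive fraction, against 14694, 17908, 14054 and 20369 in the GFP-negative fraction, a rise of 1.62 (SE 0.27, adjusted p = 0.0070). For atp6v0cb they were 1594, 419, 935 and 664 on GFP-positive arrays, against 4945, 5949, 2110 and 2597 on GFP-negative arrays. This gene was lower in 4 of 4 pairs, without overlap, and had a log2 difference of -2.15 (SE 0.46, adjusted p = 0.014; 0.054 without replicate 4). A further atp6v0ca probe set did not pass (0.78, adjusted p = 0.25): it gave 1061, 10034, 3145 and 8155 on GFP-positive and 1362, 4196, 3417 and 1610 on GFP-negative arrays, higher in 2 of 4 pairs.

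In the V1 sector the E subunit gene atp6v1e1b, part of the peripheral stalks, had signals of 25326, 20715, 13283 and 18390 on GFP-positive arrays and 6287, 4615, 4755 and 3991 on GFP-negative arrays. No values overlapped, and it was 3.91-fold higher (log2 difference 1.97, SE 0.27, adjusted p = 0.0042). The D subunit gene atp6v1d, part of the central rotor, gave 9276, 13428, 7162 and 12050 in GFP-positive cells, against 4287, 3620, 2643 and 3079 in GFP-negative cells. That is a difference of 1.60 (SE 0.28, adjusted p = 0.0080; 0.053 without replicate 2). Its rotor partner atp6v1f differed by 1.57 (SE 0.43, adjusted p = 0.033), with signals of 3623, 12861, 5105 and 10249 on GFP-positive arrays and 3182, 2704, 2129 and 1722 on GFP-negative arrays. The fractions of atp6v1f were close in pair 1 (0.19) and far apart in pair 4 (2.57).

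The B subunit, which forms the ATP-splitting head with the A subunit, has a pair of genes here that also diverged. Signals of atp6v1ba were 18671, 35828, 29024 and 40088 on GFP-positive arrays, against 9825, 11057, 8066 and 7437 on GFP-negative arrays, a rise of 1.73 (SE 0.32, adjusted p = 0.0092; 0.053 without replicate 4). For atp6v1b2 they were 322, 109, 205 and 105 on GFP-positive arrays, where 1 of 4 was above the dim threshold, against 638, 507, 237 and 265 on GFP-negative arrays. It was lower in 4 of 4 pairs, with a difference of -1.19 (SE 0.42) that did not pass (adjusted p = 0.073). The C subunit, a link between stalk and V0, is encoded by atp6v1c1a and atp6v1c1b, which both rose. Signals of atp6v1c1a were 4969, 11627, 11573 and 17383 on GFP-positive arrays, against 4719, 5056, 3167 and 3985 on GFP-negative arrays, where only GFP-positive array 1 fell within the GFP-negative range (1.32, SE 0.39, adjusted p = 0.041). Those of atp6v1c1b were 9169, 9387, 6176 and 8167 on GFP-positive arrays, against 5496, 3495, 2630 and 2089 on GFP-negative arrays, without overlap (1.34, SE 0.30, adjusted p = 0.017).

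The last V1 genes were the G and H subunits. Signals of atp6v1g1, the partner of the E subunit in the peripheral stalk, were 11960, 31115, 25555 and 42275 in the GFP-positive fraction, against 8648, 13514, 14265 and 9359 in the GFP-negative fraction. It rose by 1.17 (adjusted p = 0.041), with GFP-positive array 1 inside the range of the GFP-negative arrays. This call was also lost with no replicate block (adjusted p = 0.055), under quantile normalization (adjusted p = 0.070) and with no filter (adjusted p = 0.051). The regulatory H subunit gene atp6v1h, at 1733, 6285, 2541 and 5116 on GFP-positive arrays and 1863, 1657, 1310 and 1155 on GFP-negative arrays, did not pass (1.23, adjusted p = 0.064). Pair 1 of atp6v1h was at -0.10 and the other pairs at 0.96 to 2.15, and it was called without replicate 1 (1.68, adjusted p = 0.015), under quantile normalization (adjusted p = 0.036) and after cyclic loess (adjusted p = 0.037).

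**Figure D2:**
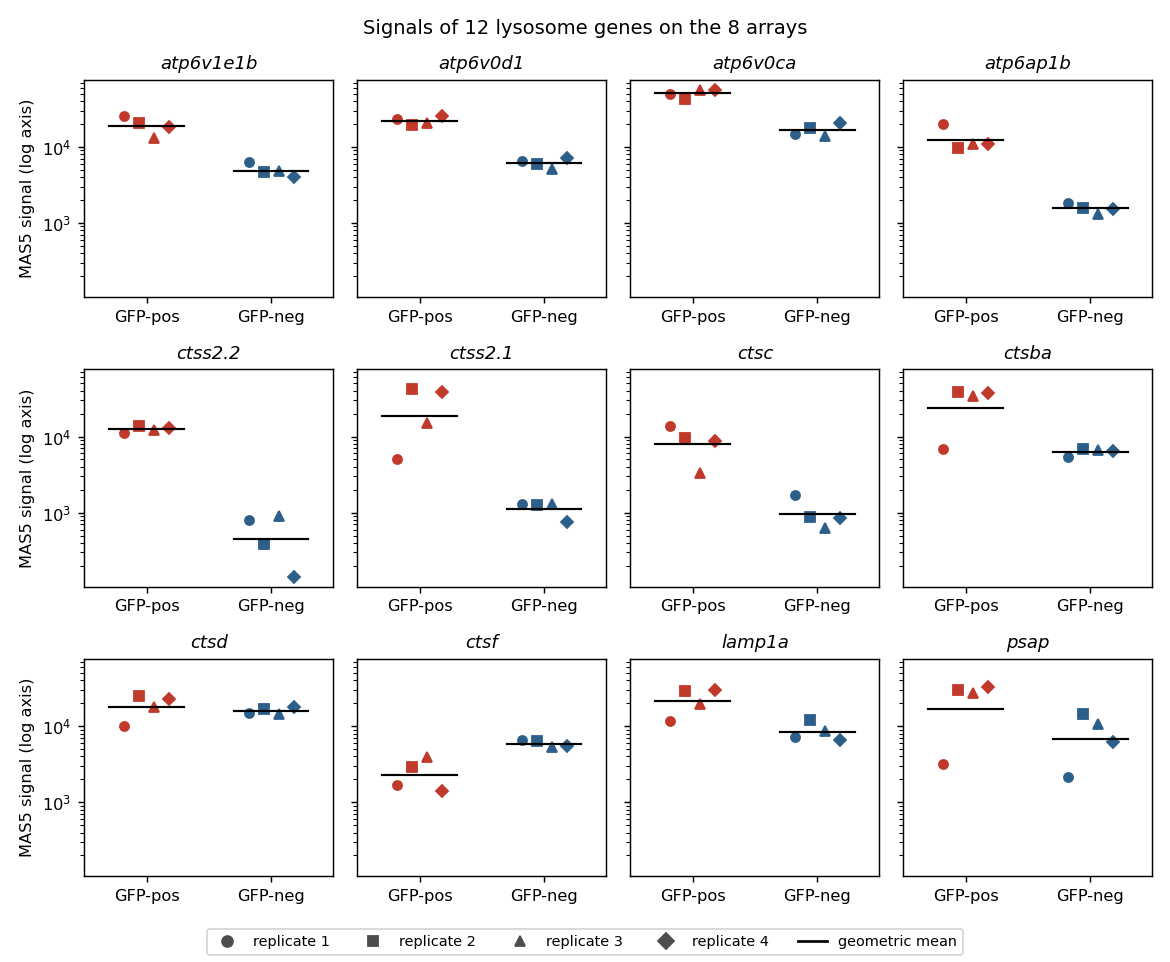
MAS5 signals (log axis) of 12 lysosome genes on the GFP-positive arrays (left, red) and the GFP-negative arrays (right, blue); symbols mark the replicates and lines the geometric means. The fractions are apart for atp6ap1b, ctss2.2 and ctsc and overlap for ctsd, and GFP-positive array 1 lies low for ctsba and psap; signals of different genes are not on a common scale.

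Among the tested proteases cathepsins S, C, B and A rose and cathepsin F fell. Cathepsins D, L (ctsla), K and Z and legumain did not pass. Of 14 protease genes 11 were tested, 5 rose, 1 fell and 5 did not pass. Of all tested probe sets 13% were called higher and 18.4% lower. The 6 called genes moved the same way in all 4 pairs, which their selection on these pairs favours. The median difference of the 11 tested genes was 0.93, with pair medians of -0.36, 1.66, 0.93 and 1.42. Without replicate 2, 3 or 4 the number that rose was 3 each time, and without replicate 1 it was 7. Of all tested probe sets 6.87%, 9.11%, 6.59% and 15.0% were then called higher.

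Cathepsin S degrades proteins in endosomes and, in mammals, cuts the invariant chain of antigen presentation. Signals of ctss2.2 were 11206, 13720, 12033 and 13022 on GFP-positive arrays, against 799, 383, 916 and 143 on GFP-negative arrays, where 3 of 4 were above the dim threshold. The GFP-positive values were nearly level (SD 0.13 on the log2 scale, n = 4) while the GFP-negative ones varied (SD 1.23, n = 4). The log2 difference was 4.80 (SE 0.50, adjusted p = 0.0019), the largest of the 32 tested genes, and the fold was 27.8. Its further probe set failed the filter, being dim in the whole GFP-negative fraction and on GFP-positive array 1. That probe set was at least 2.11-fold higher, without a test, with signals of 168, 756, 458 and 675 on GFP-positive arrays and 126, 115, 145 and 32 on GFP-negative arrays. The neighbouring symbol ctss2.1 had 5036, 41855, 15027 and 37898 in the GFP-positive fraction, against 1288, 1251, 1303 and 760 in the GFP-negative fraction. Here the GFP-positive arrays spread widely, array 1 being the lowest, and the difference was 4.05 (SE 0.60, adjusted p = 0.0051). Whether the ctss2.1 and ctss2.2 probe sets share transcripts was not tested. The remaining cathepsin S gene, ctss1, was measured on 3 of 4 GFP-positive arrays (924, 1462, 148 and 480) and dim on each GFP-negative array (98, 52, 53 and 50). It failed the filter and was at least 2.64-fold higher, without a test.

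Cathepsin C, encoded by ctsc, removes dipeptides and in mammals activates the serine proteases of neutrophil and cytotoxic granules. Its signals were 13676, 9556, 3349 and 8841 on GFP-positive arrays, against 1716, 869, 637 and 858 on GFP-negative arrays. The fractions did not overlap, GFP-positive array 3 being nearest to the GFP-negative ones, and the rise was 3.05 (SE 0.29, adjusted p = 0.0014), or 8.30-fold. Cathepsin B, a broad lysosomal protease encoded by ctsba, gave 6822, 38517, 33773 and 37319 in GFP-positive cells, against 5367, 6845, 6702 and 6461 in GFP-negative cells. GFP-positive arrays 2 to 4 were high, while array 1 lay just under the highest GFP-negative array, with pair differences of 0.35, 2.49, 2.33 and 2.53. The fitted rise was 1.93 (SE 0.43, adjusted p = 0.016), and it was 1.74, 1.79 and 1.72 without replicate 2, 3 or 4, where it was no longer called (adjusted p = 0.073, 0.062 and 0.077).

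The carboxypeptidase cathepsin A, encoded by ctsa and known to protect other lysosomal enzymes, rose least. It had 6559, 7250, 5183 and 5925 on GFP-positive arrays, against 5214, 3256, 2722 and 2422 on GFP-negative arrays. The fractions met at 5183 and 5214, and the difference was 0.93 (SE 0.28, adjusted p = 0.046), a call lost after median centring (adjusted p = 0.060), with no variance trend, with no filter and without replicate 2, 3 or 4. Cathepsin F, a cysteine protease encoded by ctsf, was the only member of this class that fell. Its signals were 1661, 2925, 3913 and 1397 on GFP-positive arrays, against 6513, 6308, 5268 and 5484 on GFP-negative arrays. All GFP-positive arrays were below all GFP-negative arrays, and the difference was -1.37 (SE 0.35, adjusted p = 0.025), with adjusted p = 0.052 after median centring and 0.085 and 0.11 without replicate 2 or 4.

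The aspartic protease cathepsin D (ctsd), a housekeeping enzyme of lysosomes, was bright in both fractions. It gave 10031, 24746, 18097 and 23032 on GFP-positive arrays, against 14811, 16685, 14575 and 18093 on GFP-negative arrays. These ranges overlapped, and the difference of 0.17 had a 95% confidence interval of -0.53 to 0.86 (adjusted p = 0.69); it was -0.16 under quantile normalization. Cathepsin L (ctsla) had signals of 3724, 11049, 8140 and 9473 on GFP-positive arrays and 10885, 13764, 16542 and 10319 on GFP-negative arrays. It was lower in 4 of 4 pairs, with a difference of -0.75 that did not pass (95% confidence interval -1.53 to 0.02, adjusted p = 0.12).

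The remaining tested proteases, ctsz, ctsk and lgmn, did not pass, each with a negative difference in pair 1 and positive ones in pairs 2 to 4. The carboxypeptidase gene ctsz had 599, 6504, 1800 and 4732 on GFP-positive arrays and 1704, 1105, 1024 and 668 on GFP-negative arrays. Its difference was 1.17 (SE 0.70, adjusted p = 0.24), and 2.06 without replicate 1 (adjusted p = 0.021). Signals of ctsk, the collagen-cleaving cathepsin of osteoclasts, were 588, 1690, 2363 and 1001 in the GFP-positive fraction, against 755, 633, 880 and 548 in the GFP-negative fraction (0.84, adjusted p = 0.13; 1.24 and 0.019 without replicate 1). Legumain (lgmn), which cuts after asparagine and activates cathepsins, gave 1595, 9381, 2250 and 4626 on GFP-positive arrays, against 2999, 2959, 2069 and 1730 on GFP-negative arrays (0.57, adjusted p = 0.38). In this trio GFP-positive array 1 was the lowest of its fraction each time. Of the cathepsin L relatives that failed the filter, ctsl.1 had 1084, 586, 233 and 277 on GFP-positive arrays, where array 3 was dim. On GFP-negative arrays it had 10, 46, 9.72 and 37, all dim, and it was at least 2.13-fold higher, without a test. Its further probe set gave 95, 124, 162 and 242 on GFP-positive arrays, of which 1 was above the dim threshold. On GFP-negative arrays that probe set gave 38, 26, 22 and 100, all dim, and no fold is given for it. The gene ctsll was dim on all GFP-positive arrays (269, 8.67, 178 and 68) and measured on 1 GFP-negative array, at 629, with 55 to 80 on the others.

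Among the 6 tested genes of the other lysosomal class the largest difference was 1.35, below the 4.80 of the tested proteases and the 2.98 of the pump. Of 7 genes 6 were tested, 3 rose, 0 fell and 3 did not pass, against 13% called higher and 18.4% lower of all tested probe sets. The median difference was 0.99, with pair medians of 0.68, 1.16, 0.63 and 1.52. None of the 3 rises was called without replicate 2, 3 or 4, when 6.87%, 9.11% and 6.59% of all tested probe sets were called higher. The genes lamp1a and lamp2 encode the main glycoproteins of the lysosomal membrane. Signals of lamp1a were 11830, 29104, 19804 and 29843 on GFP-positive arrays, against 7248, 12093, 8574 and 6496 on GFP-negative arrays, with array 1 of the GFP-positive fraction below the highest GFP-negative array. It rose by 1.35 (SE 0.32, adjusted p = 0.021). Those of lamp2 were 8066, 10011, 6281 and 8874 in the GFP-positive fraction and 5141, 3932, 3298 and 2659 in the GFP-negative fraction, without overlap, a rise of 1.17 (SE 0.29, adjusted p = 0.024).

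Prosaposin (psap), the precursor of the saposins that help enzymes to degrade sphingolipids, rose by 1.34 (SE 0.35, adjusted p = 0.028). Its signals were 3190, 29594, 26879 and 32990 on GFP-positive arrays, against 2127, 14278, 10677 and 6247 on GFP-negative arrays. Replicate 1 was the lowest of both fractions, so the rise was seen within pairs (0.58, 1.05, 1.33 and 2.40), and it did not pass with no replicate block (adjusted p = 0.25). The cholesterol exporter gene npc1, at 8599, 3037, 3232 and 4238 on GFP-positive arrays and 3837, 2072, 2574 and 2460 on GFP-negative arrays, was higher in 4 of 4 pairs but did not pass (0.71, adjusted p = 0.090). Signals of lamp1b were 450, 404, 987 and 708 in GFP-positive cells, against 1221, 1293, 1057 and 1308 in GFP-negative cells. These did not overlap, with a difference of -1.03 that did not pass (SE 0.34, adjusted p = 0.059; 0.039 without replicate 3).

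The receptor that carries glucocerebrosidase to the lysosome in mammals, scarb2a, was above the dim threshold on 2 of 4 GFP-positive and 2 of 4 GFP-negative arrays. Its signals were 238, 599, 170 and 570 on GFP-positive and 106, 201, 295 and 230 on GFP-negative arrays, a difference of 0.81 (adjusted p = 0.23). Acid ceramidase (asah1a), the 1 acid hydrolase of lipids found by the rule, failed the filter. It had 49, 348, 226 and 348 on GFP-positive arrays, of which 2 were above the dim threshold, against 54, 50, 25 and 17 on GFP-negative arrays, all dim, and no fold is given for it.

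**Figure D3:**
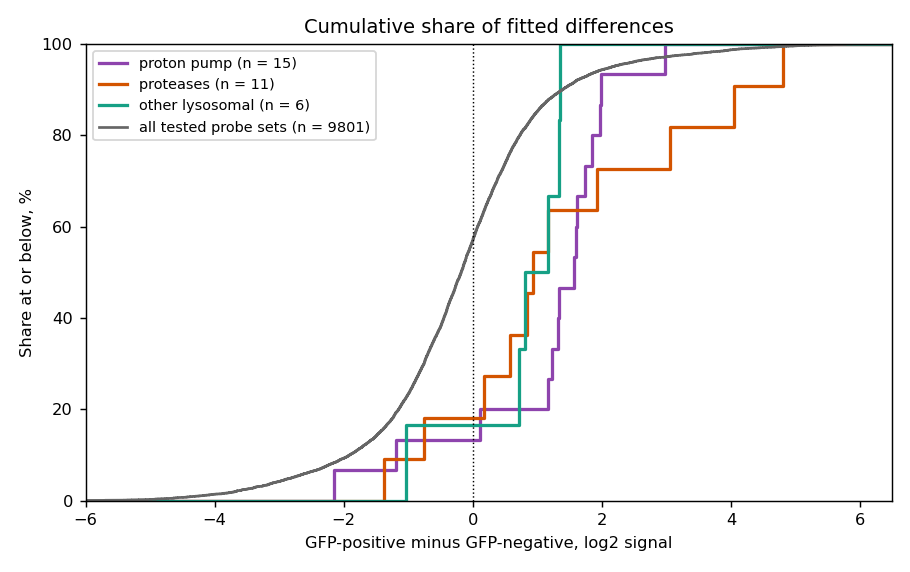
Cumulative share (%) of fitted log2 differences, GFP-positive minus GFP-negative, for the 15 tested pump genes, 11 proteases and 6 other lysosomal genes, beside all 9801 tested probe sets. The medians were 1.57, 0.93 and 0.99 for the classes and -0.18 for all probe sets, and the protease curve reaches farthest to the right, to 4.80.

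Related genes of the same subunit or protein were set side by side in 5 chosen pairs, and in 3 of these the estimates pointed opposite ways. Other related members were not compared, among them atp6ap1b with atp6ap1la, ctsla with ctsl.1 and ctsll, and ctss1 with the ctss2 genes. The 3 of 5 is therefore not a rate over all related genes. The difference of atp6v0ca exceeded that of atp6v0cb in 4 of 4 pairs, by a mean of 3.77 on the log2 scale (SD 0.89, n = 4 pairs). For atp6v1ba over atp6v1b2 the gap was 2.91 (SD 1.07) and for lamp1a over lamp1b 2.37 (SD 0.82), both in 4 of 4 pairs. The C subunit genes atp6v1c1a and atp6v1c1b did not separate, with a gap of -0.02 (SD 0.55, exact p = 0.88). The cathepsin S genes ctss2.2 and ctss2.1 differed by 0.75 (SD 0.81). An exact two-sided permutation test of the signs over 4 pairs cannot give less than 0.125, and 4 of the 5 comparisons reached this value (adjusted over the 5, exact p = 0.156), so none could pass at 0.05. The summed signal of the neural markers was 2003 to 14963 on GFP-positive arrays, against 48194 to 69578 on GFP-negative arrays. That of the muscle markers was 1795 to 7519, against 49155 to 135360. Both were thus low in the fraction where atp6v0cb, atp6v1b2, lamp1b and ctsf were low. They were not alone in this. Of 7 tested notochord and matrix markers 6 fell and 1 rose, and of 8 tested erythroid markers 5 fell and 0 rose. Of all tested probe sets 18.4% were called lower there. The part of these cells in the values was not tested.

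**Figure D4:**
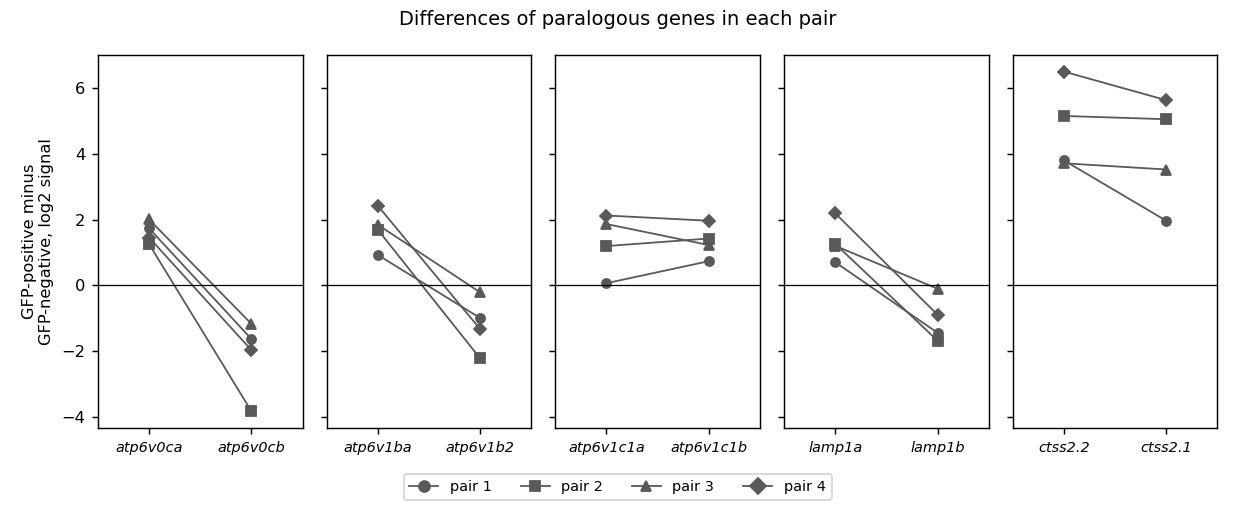
Log2 differences, GFP-positive minus GFP-negative, of 5 pairs of related genes, with 1 line for each pair of arrays. In the panels of atp6v0ca, atp6v1ba and lamp1a the first gene lies above 0 and its relative below 0 in all 4 pairs, while the C subunit genes lie together.

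The size of the differences varied with the pair of arrays. Among the 19 risen genes, the difference was smallest in pair 1 for 12 and largest in pair 4 for 14. The same count was not made for all risen probe sets, so whether it is particular to these genes was not tested. Over all tested probe sets the pair medians were -0.15, -0.14, -0.13 and -0.23. The 12 included V1 genes (atp6v1ba, atp6v1c1a, atp6v1c1b, atp6v1d, atp6v1f and atp6v1g1) and ctsba, ctss2.1, ctsa, lamp1a, lamp2 and psap. The exceptions with their largest difference in pair 1 were the accessory genes atp6ap1b and atp6ap2, at 3.43 and 2.64. The V0 genes atp6v0ca and atp6v0d1 had their largest difference in pair 3 (2.01 and 2.00) and their smallest in pair 2. The GAPDH control signal at the 3' end over that in the middle, a sign of shortened transcripts, was 11.5 on GFP-positive array 1 and between 3.35 and 4.54 on GFP-positive arrays 2 to 4, against 7.45 on GFP-negative array 1 and between 2.03 and 3.76 on GFP-negative arrays 2 to 4. The ratio to the 5' end was higher on the GFP-positive array of every pair and highest on array 3, at 86.6, 31.3, 100 and 45.6 on GFP-positive arrays 1 to 4, against 75.4, 22.6, 18.2 and 21.6 on GFP-negative arrays. The part of either ratio in the differences was not tested.

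Further lysosomal genes were taken from a list of 90. Of 35 tested genes 14 rose and 2 fell, against 13% called higher and 18.4% lower of all tested probe sets, and their median difference was 0.95, against -0.18. The called genes with the smallest p were grna, cd68 and laptm5. The progranulin gene grna had signals of 8900, 5888, 3669 and 6074 on GFP-positive arrays, against 368, 136, 101 and 117 on GFP-negative arrays, of which 3 were dim. It was called higher (adjusted p = 0.00053), but the size of its difference is uncertain, since most GFP-negative values are at background. For cd68, a lysosomal membrane glycoprotein of macrophages, they were 22347, 16274, 15126 and 26477 in GFP-positive cells, against 1671, 878, 1254 and 581 in GFP-negative cells (4.26, adjusted p = 0.0011). The leukocyte gene laptm5 rose by 4.92 (SE 0.50, adjusted p = 0.0017). Several of the 14 rises were not called without replicate 2 or 4. The mannosidase genes manba, man2b1 and man2b2 did not pass (0.52, 0.47 and 0.60, adjusted p = 0.18, 0.31 and 0.26). Of the fucosidase genes, fuca1.1 did not pass (0.54, adjusted p = 0.19) and fuca2 failed the filter. Signals of fuca2 were 1409, 388, 225 and 331 on GFP-positive arrays, of which 3 were above the dim threshold. On GFP-negative arrays they were 109, 29, 101 and 66, all dim, and fuca2 has no test. The genes that fell were sumf2 (-1.36, adjusted p = 0.014) and laptm4b (-1.15, adjusted p = 0.024), both lower in 4 of 4 pairs. Both lost their call without replicate 2, 3 or 4, and laptm4b also with no replicate block and under quantile normalization.

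The a subunit of V0, through which protons cross the membrane, was represented by tcirg1b, the gene linked to osteoclasts in mammals. Its signals were 1429, 6995, 3057 and 5307 on GFP-positive arrays, against 450, 339, 311 and 268 on GFP-negative arrays, a rise of 3.41 (SE 0.48, adjusted p = 0.0046). The chloride and proton exchanger gene clcn7 had 11394, 7197, 4033 and 4053 on GFP-positive arrays and 1123, 1164, 1378 and 1906 on GFP-negative arrays, a rise of 2.15 (SE 0.42, adjusted p = 0.011). Its partner ostm1 rose by 1.17 (SE 0.31, adjusted p = 0.029), a call lost with no replicate block and without replicate 2, 3 or 4. The fractions of tcirg1b and clcn7 did not overlap.

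Of 41 tested genes for sorting to the lysosome and its biogenesis 15 rose and 1 fell, against 13% called higher and 18.4% lower of all tested probe sets, with a median of 0.68. Of the 15 only rab32a, rab7a and mitfa kept their call under every alternative. The other risen genes each lost theirs without replicate 4, and most also without replicate 2. The GTPase genes rab32a and rab7a, which act on lysosome-related organelles and on late endosomes, rose by 3.28 (SE 0.35, adjusted p = 0.0020) and 1.59 (SE 0.25, adjusted p = 0.0062). The transcription factor gene mitfa, a pigment cell regulator of the family that controls lysosomal genes, rose by 1.62 (SE 0.27, adjusted p = 0.0072). Its relative tfe3a did not pass (0.30, adjusted p = 0.52). The gene that fell was map1lc3a (-1.67, SE 0.33, adjusted p = 0.011), of the autophagosome coat, with signals of 455, 942, 797 and 489 on GFP-positive arrays and 2483, 3241, 1401 and 1532 on GFP-negative arrays. Its relative gabarapa rose (1.25, adjusted p = 0.013), and both calls were lost without replicate 2 or 4. Of 3 tested genes for cathepsin inhibitors, cst14b.1 rose by 2.53 (SE 0.64, adjusted p = 0.026) and serpinb1l3 by 1.17 (SE 0.31, adjusted p = 0.028), while cst3, the cystatin C gene, did not pass (0.37, adjusted p = 0.35). Both inhibitor calls were lost without replicate 2 or 4.

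Markers of other cells that use the pump or lysosome-related organelles moved in different ways. Of all tested probe sets 13% were called higher and 18.4% lower, the share to set beside each count here. Of 8 tested neutrophil markers 8 rose, with a summed signal of 145488 to 319769 on GFP-positive arrays, against 16882 to 41138 on GFP-negative arrays. The macrophage list had 1 tested gene, slc7a7, which rose and was above the dim threshold on 1 of 4 GFP-negative arrays. Its genes csf1ra, marco, lgals3bp.1 and c1qc failed the filter and have no test. Each was above the threshold on 3 of 4 GFP-positive arrays and dim on all GFP-negative arrays, while cd74a was dim on all 8 arrays. Of 5 tested pigment cell markers 2 rose (rab32a and mitfa, given above) and 3 fell, among them dct, a melanin synthesis gene (-1.76, adjusted p = 0.033, lost without replicate 1, 2 or 4). The gene tyr failed the filter. It was dim on all GFP-positive arrays and above the dim threshold on only 1 GFP-negative array, so it shows no difference. The summed pigment signal was 6755 to 11521 on GFP-positive arrays, against 5552 to 8012 on GFP-negative arrays, but rab32a makes up most of it on GFP-positive arrays. Without rab32a the other 5 markers summed to 1686 to 3380 on GFP-positive arrays, against 5037 to 6852 on GFP-negative arrays. Of 4 tested osteoclast markers 3 rose, namely mmp9 (dim on all GFP-negative arrays, at least 46.4-fold higher and also on the neutrophil list), tcirg1b and clcn7, and acp5a did not pass. The genes tcirg1b, clcn7 and acp5a are also on the list of further lysosomal genes, so the osteoclast count holds no separate marker. Of 2 tested markers of acid-secreting ionocytes 0 passed, ca2 at 0.19 and atp1b1b at 0.29, and rhcgb and ceacam1 were dim on all 8 arrays. The part of these cell types in the lysosomal differences was not tested.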

How the data were processed

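The deposited values are linear intensity, made with MAS5 per the submitters' processing notes (version not given in the sources used here). The mean signal, with 2 percent of probe sets trimmed at each end, was 1499.09 to 1499.5 on all arrays, and no further scaling was applied. No pair of arrays was identical.

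Of 15617 probe sets 115 were controls and stayed out. The platform annotation gave 10802 probe sets 1 symbol, 135 several and 4680 none, and the symbols of 10718 were matched to current names by gene identifier. No coordinates or sequences are given. Signals were taken to log2 without a pseudocount. Probe sets above the 40th percentile of the array on at least 4 of 8 arrays were fitted in R 4.3.3 by limma 3.58.1, with a mean-variance trend and two-sided tests, with the replicate number as a block and Benjamini-Hochberg adjustment over 9801 probe sets. The study's design text says that the fractions were paired, and the sample titles give both fractions of a replicate the same numbers, whose meaning is not stated. Deviations from the group means correlated within pairs by 0.40, 0.26, 0.18 and -0.12. The fit was tested on simulated data. Alternatives were no block, quantile, median or cyclic loess scaling, no filter, a stricter filter (60th percentile), no trend, a pseudocount of 50, all probe sets of a gene and leaving out each replicate.

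A fold against a fraction dim on all 4 arrays is a bound, "at least N-fold". It sets the mean log2 signal of the brighter fraction against the mean, over the dim arrays, of the higher of threshold and signal, and leaves out the spread. The rule for full statistics took, per class, the 6 called genes with the smallest p, up to 3 that fell and the 2 brightest that did not pass, and per list up to 3 called genes each way; the remaining members were added for completeness. Genes named beyond that rule were chosen after their values were seen. They are ostm1, clcn7, tcirg1b, tfe3a, gabarapa, the mannosidase and fucosidase genes and the genes given as markers. The members and lists were chosen with earlier results of these data known. Of the lists, hatching gland (1 of 4 rose, 1 fell), thrombocyte (3 of 6 rose, 2 fell) and yolk and liver markers (1 of 3 rose, 1 fell) are given here only. Erythroid (0 of 8 rose, 5 fell) and notochord and matrix markers (1 of 7 rose, 6 fell) are also given with the pairs of related genes. The thrombocyte marker thbs1b and the matrix marker prrx1a were dim on all GFP-positive arrays. Both passed the filter only through the GFP-negative arrays. Over all tested probe sets, 13% were called higher and 18.4% lower.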

Additional observations from a re-analysis of the deposited data

Results flagged for a closer look

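Within the 4 arrays of a fraction, 5 of 72 groups of log2 signals held a value set apart from the other 3 by most of the group's range; chance gives about 1 in 20 groups. In the GFP-positive fraction replicate 1 was low for psap, at 11.64 with the others at 14.71 to 15.01, and for ctsba, at 12.74 with the others at 15.04 to 15.23. In the GFP-negative fraction replicate 1 was high for ctsll, at 9.30 with the others at 5.79 to 6.32, and for ctss1, at 6.61 with the others at 5.64 to 5.73, where all 4 arrays were dim. GFP-negative replicate 4 was low for ctss2.1, at 9.57 with the others at 10.29 to 10.35.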

How the results depend on the processing

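The medians of the 3 classes stayed above 0 under every alternative tried, at 1.23 to 1.76 for the pump, 0.71 to 1.24 for the proteases and 0.83 to 1.3 for the others. With 1 replicate left out, 6 to 12 pump genes, 3 to 7 proteases and 0 to 3 others rose, and 0 to 1 of each class fell, while over all probe sets 646 to 1466 were higher and 659 to 2027 lower. After median centring 0 proteases fell, and with no replicate block 1 other gene fell (lamp1b). Under the remaining alternatives the counts stayed within 1.5 times their value. The replicate block changed no other call among the members than those of lamp1b, psap and atp6v1g1. Of 21 called genes 8 were called under all 12 alternatives: ctsc, ctss2.1, ctss2.2, atp6ap1b, atp6ap2, atp6v0ca, atp6v0d1 and atp6v1e1b. These 12 do not include the further probe sets of a gene, and that of atp6v0ca did not pass (0.78, adjusted p = 0.25). Without replicate 2, 3 or 4, 11, 9 and 12 of the 21 lost their call. Without replicate 1, 0 lost their call and 3 uncalled genes gained one. Each of these fits holds fewer arrays, by the same number, and the cause of the contrast was not tested. Directions turned for ctsd under quantile normalization (-0.16) and for atp6ap1la without replicate 1 (-0.11) or 3 (-0.15; up to 0.37 without replicate 4), none of them called, and the cause was not tested. Scaling moved the median of all probe sets by 0.113 (quantile), 0.124 (cyclic loess) and 0.190 (median centring); the class medians stayed above 0 under each. That changed the balance of all calls to 1434 higher and 1550 lower, 1478 and 1586, and 1496 and 1440, beside 1273 and 1805 on the deposited scale. Signals of dim probe sets limit what can be said of asah1a, ctsl.1, ctsll, ctss1, scarb2a and atp6v1b2.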
